A study of Mus musculus with 7 samples.

Results

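Reporter transcripts driven by the promoter labelled pR-Ea were compared with the plasmid library they came from, in P5424, a mouse cell line of immature T cells. The genome was divided into 500 bp bins, each read was placed at the midpoint of its fragment, and a bin was kept when it held at least 50 reads of the pR-Ea plasmid input. This left 39576 of the 1613587 bins with any read in the pR-Ea file, out of 2208033 bins with a read in at least 1 of the 3 promoter files. Most kept bins gave reporter output close to their share of the input. Only 398 bins (1.01%) were at least 2-fold above input, while 3446 (8.71%) were at least 2-fold below it. Counted by distinct read positions in place of reads, the numbers were 43 and 684.

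The assay, CapStarr-seq, captures chosen genomic fragments, here DNase hypersensitive sites, and clones them inside the transcript of a reporter plasmid, so that each fragment is copied into the RNA whose amount it affects. DNase hypersensitive sites are stretches of open chromatin where regulatory proteins bind, and they include promoters, enhancers, insulators and silencers. Enhancers raise transcription from a promoter and silencers lower it. A promoter that gives little RNA by itself leaves room for an enhancer to act, and a promoter with strong output leaves room for a silencer.

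The series has 7 single-library groups. Of these, 3 are reporter RNA driven by SCP1, a synthetic core promoter, by pPGK, named for the phosphoglycerate kinase gene, and by pR-Ea. The others are a pPGK reporter titled PMA_I and the inputs of the 3 promoters. All come from P5424 cells, and the treatment field names PMA with ionomycin for every one of them, while only 1 title carries PMA_I; the pR-Ea titles do not. The sources used here do not describe the pR-Ea promoter, and its output without an insert was not analysed here. The reads come from plasmid inserts, so the identity of the cell line could not be checked against marker genes. The pR-Ea reporter held 51450446 reads on 6693133 distinct 5′ end positions and its input 18940646 reads on 5307688 positions. With 1 library per group no difference below was tested against replicates, and no p-value is given.

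For each bin the ratio of reporter to input reads was scaled to the totals of both libraries over the kept bins. A ratio of 1, or 0 on the log2 scale, therefore means the average output of these bins, and no neutral insert marks the output of the promoter alone. A bin below input is not thereby shown to silence, nor a bin above input to enhance. A bin was called above input at a log2 ratio of 1 or more, or below input at -1 or less (1 read was added to each count), if its exact 95% interval by Clopper-Pearson also left out 0. That interval covers counting error only. It removed no pR-Ea bin, since the limit on size alone gave the same 398 bins above and 3446 below. Named bins also carry a standard error computed over positions (SE), because reads that share a position can be PCR copies. It is too small if both ends of a plasmid insert were read, since 1 insert then gives 2 positions.

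The pR-Ea ratios were spread unevenly around the average. The median log2 ratio was -0.03, with quartiles at -0.46 and 0.33. The upper tail was short, with a 90th percentile of 0.60, a 95th of 0.75 and a maximum of 2.62. Only 12 bins reached a log2 ratio of 1.5 and 3 reached 2. The lower tail was long, with a 5th percentile of -1.31, a 1st percentile of -2.43 and a minimum of -7.14. On that side 1489 bins were at or under -1.5 and 719 at or under -2. The bins called above input held 1.19% of the reporter reads and 0.537% of the input reads of all kept bins, and those called below held 3.26% and 9.61%.

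The shape of the upper tail was set beside those of the other promoters in the 30800 bins that had at least 50 input reads in all 3 inputs. In these bins 249 (0.808%) were above input with pR-Ea, 1256 (4.08%) with SCP1 and 1021 (3.31%) with pPGK. Below input there were 2564 (8.32%) with pR-Ea, 4378 (14.2%) with SCP1 and 3196 (10.4%) with pPGK. Over all bins with at least 50 reads of a library's own input, 4.04% were above and 23.4% below input of 100794 with SCP1, and 4.43% and 10.3% of 50796 with pPGK. Measured from each median, the 99th percentile was 0.999 with pR-Ea, 1.62 with SCP1 and 1.24 with pPGK on the log2 scale. The 1st percentile was -2.37, -2.99 and -3.32 in the same order. Both tails were thus shorter with pR-Ea in these single libraries. The number of bins at least 1.5 above on the log2 scale was 7 with pR-Ea, 307 with SCP1 and 110 with pPGK, and at least 1.5 below it was 1087, 1968 and 1613.

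**Figure D1:**
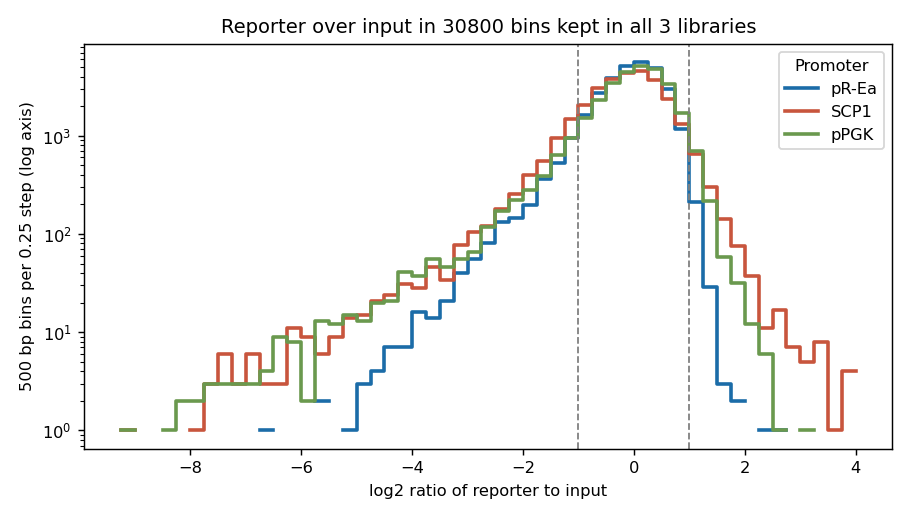
Number of 500 bp bins (log axis) by log2 ratio of reporter to input in steps of 0.25, for pR-Ea, SCP1 and pPGK in the 30800 bins kept in all 3 libraries; dashed lines mark 2-fold. The pR-Ea curve drops off just past the upper line, where 7 bins reach 1.5, while its lower side runs past -4.

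The libraries also differed in how many distinct positions stood behind a bin. In the shared bins the median number of input positions was 56 for pR-Ea, 76 for SCP1 and 19 for pPGK, and the median SE of the log2 ratio was 0.17, 0.25 and 0.24. In all 3 libraries the share of bins above input was lower at 80 or more input positions than at 1 to 9. With pR-Ea it was 2.53% of 1701 bins with 10 to 19 positions, 1.36% of 8537 with 20 to 39, 0.523% of 10127 with 40 to 79 and 0.346% of 10390 with 80 or more. At 80 or more positions the share above input was 3.55% with SCP1 and 2.66% with pPGK. The share of pR-Ea bins below input went the other way, from 6.11% at 10 to 19 positions to 9.96% at 80 or more. With pPGK it rose from 6.59% to 25.7% over the same classes, and with SCP1 it went from 18.2% to 13.6%.

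**Figure D2:**
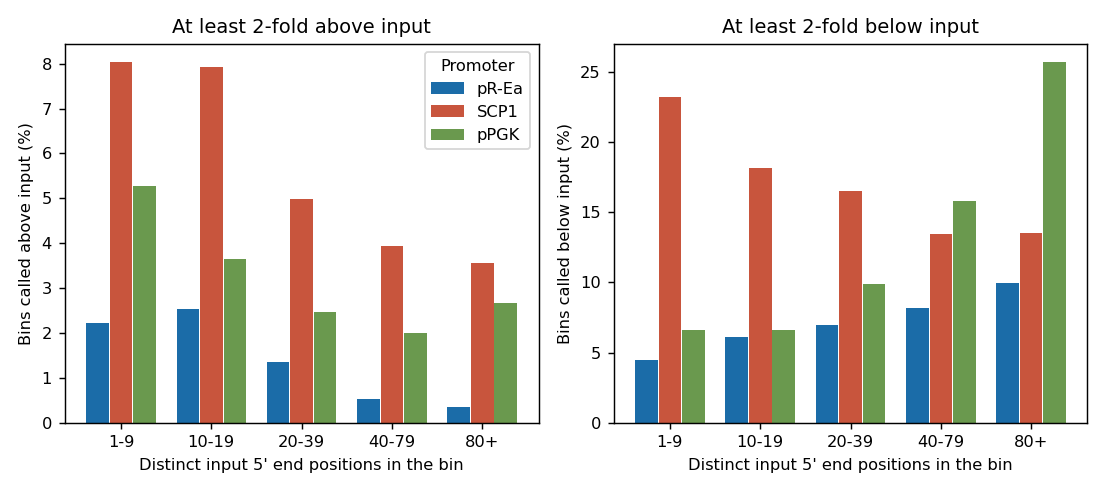
Percent of bins called above input (left) and below input (right), both axes from 0, by the number of distinct input 5′ end positions in the bin, for the 3 promoters in the bins kept in all 3 libraries. With pR-Ea the share above input is 0.346% at 80 or more positions, against 3.55% with SCP1 and 2.66% with pPGK.

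The gap on the upper side was also present in bins covered by many positions in every library. In the 13733 bins with at least 40 input positions for pR-Ea and SCP1 and 20 for pPGK, 53 bins (0.386%) were above input with pR-Ea, 460 (3.35%) with SCP1 and 317 (2.31%) with pPGK. The median SE there was 0.12 with pR-Ea and 0.19 with each of the others. Below input were 1416 bins (10.3%) with pR-Ea, 2285 (16.6%) with SCP1 and 1953 (14.2%) with pPGK. The 99th percentile lay 0.98 above the median with pR-Ea, 1.67 with SCP1 and 1.28 with pPGK. The choice of these bins was made after the data had been seen. What sets the difference between the promoters was not tested, and library, input and promoter cannot be told apart.

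Bins that stood out with SCP1 and pPGK were then read in the pR-Ea library. Its reporter reads had no part in choosing them, while its input reads did through the minimum of 50. The 334 bins above input with both of those promoters had median log2 ratios of 1.44 with SCP1 and 1.22 with pPGK, and 0.42 with pR-Ea. Of them 282 were over 0 with pR-Ea and 10 (2.99%) were called above input. The SCP1 and pPGK medians are raised by the choice of the bins, so the smaller pR-Ea median does not by itself show a weaker response. The 2074 bins below input with both SCP1 and pPGK had medians of -1.74 with each, and -1.14 with pR-Ea, to be read in the same way. Here 1196 (57.7%) were also below input with pR-Ea. Bins called with 1 of the other promoters alone lay between. The 913 bins above input with SCP1 but not called with pPGK had a median of 0.22 with pR-Ea, and the 675 bins above input with pPGK but not called with SCP1 had 0.26. The 2292 bins below input with SCP1 alone and the 1113 with pPGK alone had -0.37 and -0.51. The median pR-Ea ratio of the 23378 bins called with neither was 0.05.

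**Figure D3:**
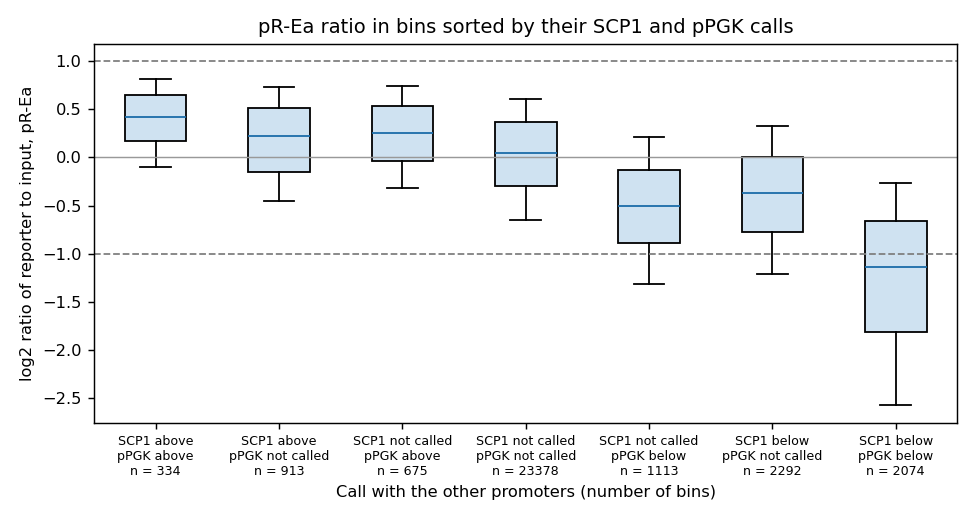
pR-Ea log2 ratio of reporter to input in bins sorted by their call with SCP1 and with pPGK (box: quartiles; line: median; whiskers: 10th and 90th percentile; classes under 50 bins left out). Bins above input with both other promoters reach a 90th percentile of 0.81 with pR-Ea, under the 2-fold line at 1, while bins below input with both have a median of -1.14.

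Seen from pR-Ea, the 2 tails overlapped with the other promoters to different degrees. Of the 2564 shared bins below input with pR-Ea, 1559 (60.8%) were below with SCP1, 1407 (54.9%) with pPGK and 1770 (69.0%) with at least 1 of them. These were 35.6% of the SCP1 list and 44.0% of the pPGK list. Of the 249 above input with pR-Ea, 22 (8.84%) were above with SCP1, 22 with pPGK and 34 (13.7%) with either, or 1.75% of the SCP1 list and 2.15% of the pPGK list. Among all shared bins the shares were 14.2% with SCP1 and 10.4% with pPGK below input, and 4.08% and 3.31% above it. There were 10 bins above and 1196 below input with all 3 promoters. Only with pR-Ea were 215 called above and 794 below, which does not show that the promoters differ there. In the pR-Ea bins above input the median log2 ratio was 0.21 with SCP1 and 0.32 with pPGK. Over all shared bins, which share fragments with their neighbours and are not replicates, the log2 ratio of pR-Ea had a Spearman rho of 0.42 with SCP1 and 0.47 with pPGK, and that of SCP1 with pPGK was 0.59.

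The largest pR-Ea ratios above input were found in bins that mostly were not called above input with the other promoters. Not being called is not the same as average output. Over the 12 bins named by size the log2 ratio ran from -0.10 to 2.18 with SCP1. With pPGK it ran from -0.53 to 1.85. The upper quartile of the shared bins was 0.31 with SCP1 and 0.41 with pPGK. The leading bin lay on chromosome 10, 24741001 to 24741500 (build mm9, as are all coordinates here), with 3209 reporter and 191 input reads. That is 6.16-fold above input, or a log2 ratio of 2.62 (SE 0.20, 95% counting interval 2.42 to 2.85). Its reads came from 187 reporter and 94 input positions, and the position with most reads held 6.79% of the reporter reads. The bin was above input with SCP1 too, at 1.76 (SE 0.34) from 550 and 130 reads, and at 0.15 (SE 0.22) with pPGK from 528 and 193 reads.

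Second was chromosome 5, 147804001 to 147804500, with 2848 reporter and 215 input reads and a log2 ratio of 2.28 (SE 0.21). The next bin of that site, 147804501 to 147805000, held 1627 and 98 reads and a log2 ratio of 2.60 (SE 0.62). With SCP1 these bins were at 2.18 (SE 0.33) and 3.19 (SE 0.46), the latter on 34 input reads, and with pPGK at 0.43 (SE 0.29) and 0.48 (SE 0.41). In both leading sites pR-Ea and SCP1 were high while pPGK was not called above input. The third was chromosome 17, 6005501 to 6006000, with 1278 and 123 reads and a log2 ratio of 1.93 (SE 0.23). There the values were 0.42 (SE 0.30) with SCP1 and -0.53 (SE 0.40) with pPGK, and the bin just before it had a pR-Ea log2 ratio of -0.62 (SE 0.28).

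Of the other high bins named by size, 4 had between 53 and 116 input reads and log2 ratios of 1.60 or more. Chromosome 10, 40705001 to 40705500, held 553 reporter and 62 input reads, for a log2 ratio of 1.70 (SE 0.16). A single position gave 27.5% of its reporter reads. Chromosome 7, 87833001 to 87833500, was at 1.83 (SE 0.23) with 519 and 53 reads, and chromosome 13, 55582501 to 55583000, at 1.71 (SE 0.28) with 1035 and 116 reads. Chromosome 18, 46315501 to 46316000, was at 1.60 (SE 0.21) with 444 and 53 reads. In that bin 88.7% of positions had a mapping score under 42, the highest score listed, where a lower score means a less certain placement. Its pPGK ratio was also called above input, at 1.85 (SE 0.63). The remaining 5 named by size lay between 1.24 and 1.55: chromosome 8, 60131001 to 60131500; chromosome 11, 4961001 to 4961500; chromosome 12, 111976501 to 111977000; chromosome 5, 142151001 to 142151500; and chromosome 4, 105519001 to 105519500. Of the 12 bins named by size, 2 were called above input with SCP1 and 2 of the 10 kept with pPGK. Among all shared bins 4.08% were above input with SCP1 and 3.31% with pPGK.

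The bins above input with most reads behind them barely passed 2-fold. Chromosome 7, 149853501 to 149854000, held 12540 reporter and 2044 input reads and a pR-Ea log2 ratio of 1.18 (SE 0.04). In it 84.7% of positions had a mapping score under 42, and 28.6% of pPGK input reads scored under 30 and were not used. The same bin was at 3.33 (SE 0.10) with SCP1, from 75438 and 6047 reads, and at 2.51 (SE 0.09) with pPGK, from 32728 and 2329 reads. Its pR-Ea ratio was lower than the SCP1 ratio by 2.15 on the log2 scale (pR-Ea minus SCP1, -2.15, SE 0.11). Chromosome 4, 105518501 to 105519500, was a site of 2 adjacent called bins. They held 9741 and 8501 reporter reads over 1664 and 1330 input reads, for pR-Ea log2 ratios of 1.11 (SE 0.05) and 1.24 (SE 0.05). With SCP1 they were at 0.59 (SE 0.08) and 0.79 (SE 0.07), and with pPGK at 0.81 (SE 0.06) and 1.18 (SE 0.09). In the latter bin, called above input with pPGK too, pR-Ea minus pPGK was 0.05 (SE 0.11). In these bins 61.5% and 71.5% of positions had a score under 42. Of their pPGK input reads 37.5% and 53.2% scored under 30 and were not used. The part of read placement in these ratios was not tested. The other 3 deepest bins were near 2-fold: chromosome 14, 121565501 to 121566000, gave 1.10 (SE 0.05), chromosome 4, 117963501 to 117964000, gave 1.09 (SE 0.05) and chromosome 5, 102092501 to 102093000, gave 1.02 (SE 0.07). They had 9267, 7378 and 6658 reporter reads, and none was called above input with SCP1 or pPGK.

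**Figure D4:**
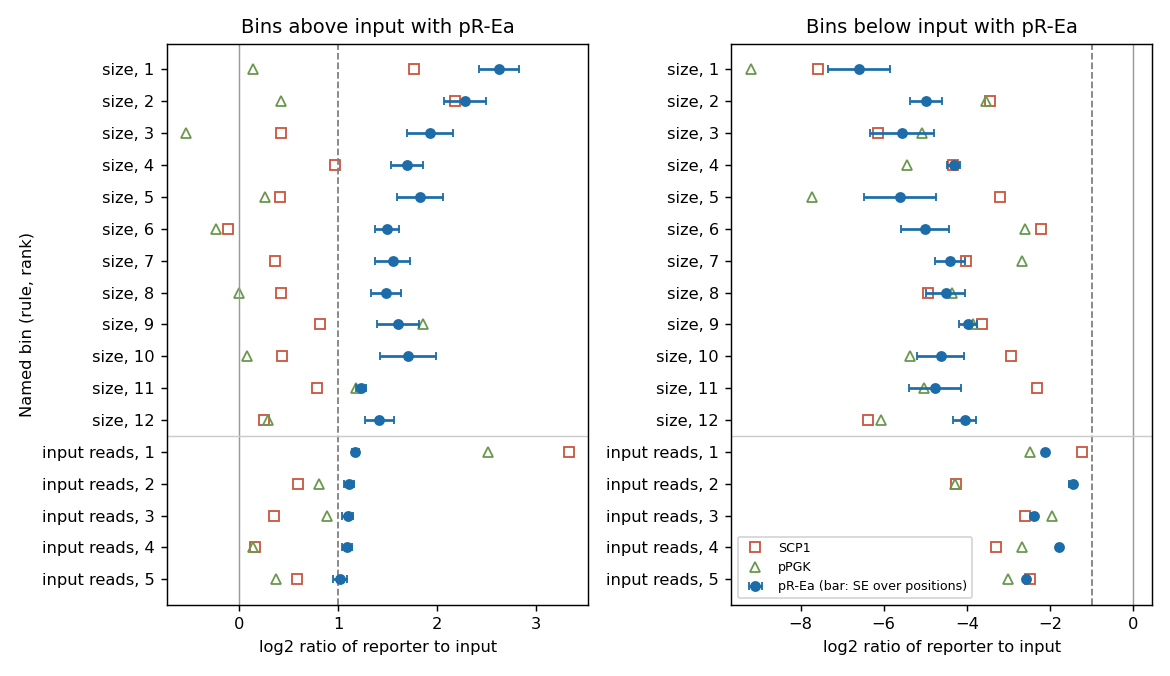
Log2 ratio of reporter to input in the 17 named bins of each tail, with pR-Ea (filled circle, bar 1 SE over positions), SCP1 (open square) and pPGK (open triangle); the first 12 are ranked by size and the last 5 by input reads, and the dashed line marks 2-fold. All 17 bins below input are called below with SCP1 and pPGK too, while on the upper side most squares and triangles lie short of the line. In the first bin below input SCP1 and pPGK have 0 reporter reads and their place is set by the pseudocount.

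The 12 bins below input named by size were all called below input with SCP1 and with pPGK too. This did not hold for every bin that low: chromosome 6, 119451501 to 119452000, outside the naming rule and picked after its values were seen, was at -4.65 (SE 0.72) with pR-Ea from 6 against 64 reads, and at 1.02 (SE 0.92) with SCP1 from 137 against 54. The lowest was chromosome 3, 32782001 to 32782500, with 4 reporter reads against 176 input reads and a log2 ratio of -6.59 (SE 0.75). With SCP1 it gave 0 reporter reads against 153 input reads and with pPGK 0 against 238. The bin just before it held 83 and 152 pR-Ea reads, for a log2 ratio of -2.30 (SE 0.66). Chromosome 7, 107207001 to 107207500, held 10 against 190 reads, for -5.56 (SE 0.76), and had 5 against 338 reads with SCP1 and 5 against 81 with pPGK. Chromosome 9, 97271001 to 97271500, was at -5.61 (SE 0.87), from 3 against 71 reads. In these bins of chromosomes 3, 7 and 9, 43.7%, 23.6% and 51.0% of pPGK input reads scored under 30 and were not used.

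The best covered of these low bins was chromosome 12, 56696501 to 56697000. It held 271 reporter reads on 104 positions against 1995 input reads on 237 positions, which is 19.9-fold below input, a log2 ratio of -4.32 (SE 0.16). The SCP1 value was -4.33 (SE 0.48), from 84 against 1376 reads, and the pPGK value was -5.45 (SE 0.31), from 73 against 1311. The preceding bin of this site was at -4.08 (SE 0.30) with pR-Ea. Chromosome 11, 77426001 to 77426500, had 19 against 232 reads and -4.98 (SE 0.39), chromosome 16, 93847001 to 93847500, had 54 against 428 and -4.40 (SE 0.36), and chromosome 2, 7368001 to 7368500, had 101 against 590 and -3.97 (SE 0.22). The other 5 were at chromosome 7, 141484001 to 141484500; chromosome 6, 64919001 to 64919500; chromosome 3, 133020001 to 133020500; chromosome 13, 63144501 to 63145000; and chromosome 9, 27999501 to 28000000. Over the 12 bins the log2 ratio ranged from -6.59 to -3.97 with pR-Ea, and the highest value with SCP1 was -2.23 and with pPGK -2.60. A single kept bin, named after its values were seen, had 0 pR-Ea reporter reads: chromosome 4, 22430001 to 22430500, with 51 input reads. With its reporter count set to a floor of 3 counts it was 46.1-fold below input, a value set by that floor and not a lower limit. The upper end of its exact counting interval was a log2 ratio of -5.18. The inputs of SCP1 and pPGK covered this bin with 3 and 2 reads.

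The 5 low bins with most input reads were below input with all 3 promoters, by like amounts in some and not in others. Chromosome 6, 87579001 to 87579500, had 5715 reporter and 9123 input reads and a log2 ratio of -2.11 (SE 0.04) with pR-Ea, against -1.24 (SE 0.06) with SCP1 and -2.48 (SE 0.06) with pPGK. Chromosome 17, 34525001 to 34525500, was at -2.40 (SE 0.05), -2.61 (SE 0.09) and -1.96 (SE 0.12) in that order. Chromosome 1, 83057501 to 83058000, was at -2.58 (SE 0.05), -2.48 (SE 0.08) and -3.02 (SE 0.05). In these 3 bins the pR-Ea value differed from each of the others by less than 1 on the log2 scale. Chromosome 13, 113847001 to 113847500, was at -1.46 (SE 0.09) with pR-Ea from 6970 against 7074 reads, and at -4.26 (SE 0.17) with SCP1 and -4.29 (SE 0.21) with pPGK. The pR-Ea value was 2.80 (SE 0.19) higher than that of SCP1 on the log2 scale. Chromosome 14, 119522501 to 119523000, was at -1.78 (SE 0.05) with pR-Ea, -3.30 (SE 0.14) with SCP1 and -2.69 (SE 0.22) with pPGK. In the order named, 13.0%, 19.1%, 53.3%, 41.9% and 38.6% of positions in the 5 bins had a mapping score under 42. Of their pPGK input reads 13.4%, 19.6%, 45.3%, 25.9% and 46.7% scored under 30 and were not used. By distinct positions none of the 5 was called, with log2 ratios from -0.59 to -0.30.

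Called bins of both tails had neighbours that leaned the same way. The 3446 bins below input formed 2934 runs of adjacent bins, and 980 of them (28.4%) lay in runs of 2 or more. The 398 bins above input formed 385 runs, and 26 (6.53%) lay in 13 runs of 2. Where a bin 500 bp downstream in the coordinates had at least 20 input reads, its median log2 ratio was -0.97 beside 1351 bins below input and 0.51 beside 169 bins above input. It was 0.03 beside 15167 bins that were not called. Of the neighbours of bins below input 48.5% were called below, against 5.34% beside bins not called, and of the neighbours of bins above input 13.0% were called above, against 1.80%. Longer runs on the low side are thus to be read against its larger number of called bins. At 1000 bp the medians were -0.44 (328 bins), 0.20 (59 bins) and 0.07 (4752 bins), and at 2000 bp they were -0.37 (143 bins), 0.08 (17 bins) and -0.01 (1610 bins). On the upstream side they were -0.46 (328 bins), -0.00 (59 bins) and 0.07 (4717 bins) at 1000 bp, and -0.38 (147 bins), -0.04 (16 bins) and -0.05 (1673 bins) at 2000 bp. Beside bins below input the median was thus lower than beside bins not called at both distances on both sides, and beside bins above input no such lean was seen upstream at 1000 bp. Fragments placed in neighbouring bins can overlap, but at 1000 bp or more they share no sequence at a fragment length of 315 bp.

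**Figure D5:**
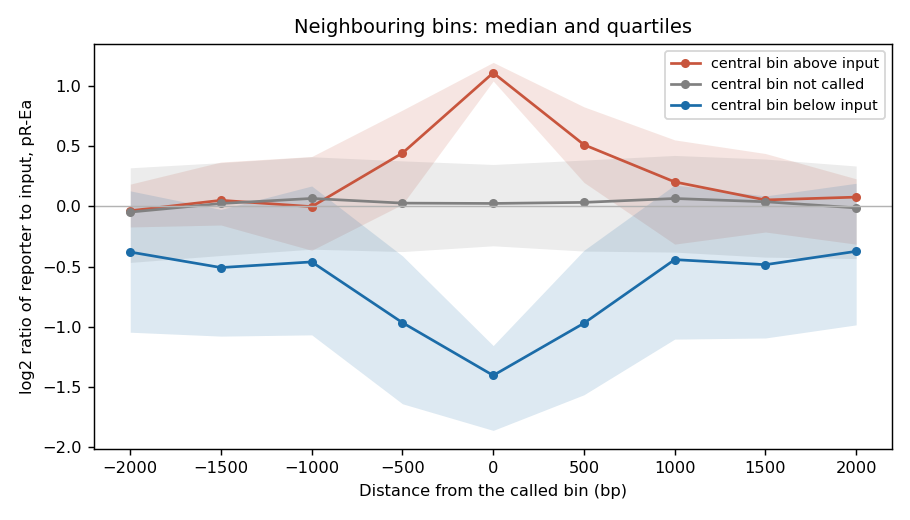
Median pR-Ea log2 ratio (points and lines) and its quartiles (bands) in bins up to 2000 bp from a bin called above input, below input or not called, where the neighbour had at least 20 input reads. Beside bins below input the median stays under 0 out to 2000 bp on either side (-0.38 and -0.37), while beside bins above input it is -0.04 and 0.08 there.

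The longest runs were on the low side, and a pair of them were 5 bins long: chromosome 2, 89225001 to 89227500, with 1097 reporter and 1238 input reads and a log2 ratio of -1.61, and chromosome 3, 62003001 to 62005500, with 415 and 427 reads and -1.48. Another run of 4 bins began 500 bp after the first, at chromosome 2, 89228001 to 89230000, with -1.56, so that low output covered most of 89225001 to 89230000. Chromosome 19, 57745001 to 57747000, was a run of 4 bins at -2.80 from 341 and 880 reads, and its bins ranged from -3.30 to -2.29. On the high side no run was longer than 1000 bp.

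The tails differed from the other bins in how their reads were distributed. Bins above input held a median of 14.3 reporter reads per position, against 7.47 in bins not called and 3.90 in bins below input. Input reads per position were 3.96, 3.57 and 3.24 in the same order. The bins were called on these same reads, so such differences follow in part from the calls. The median log2 ratio of positions was 0.46 in bins above input and -0.56 in bins below, against 1.11 and -1.40 for reads. When positions were counted in place of reads, 16 of the 398 calls above and 656 of the 3446 calls below input were kept. Of the 17 named high bins 1 kept its call by positions, on chromosome 10 at 40705001, while 12 of the 17 low bins did. A count of positions is bounded by the length of a bin, while a count of reads is not. Bins above input also had fewer input reads, with a median of 81 against 134 in bins below and 142 in bins not called. The call, which divides by the input, can bring this about too.

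Ratios on the plus and minus strand mostly lay on the same side of 1 in both tails. Of the 367 bins above input with at least 20 input reads on each strand, 366 had a ratio over 1 on both strands and 239 (65.1%) were at least 2-fold above on both. Of the 2889 such bins below input, 2887 were under 1 on both strands and 2242 (77.6%) at least 2-fold below on both. Sizes could differ, as on chromosome 9 at 27999501, with log2 ratios of -2.99 (plus) and -4.84 (minus). Taken alone, with no minimum per strand, the minus strand kept 2884 of 3430 calls below input and turned 2 to above. The plus strand kept 2972 of 3437 and turned 0. Called bins were chosen on both strands together, so lying on the same side of 1 on each strand is largely set by the call. Over all 34761 kept bins with at least 20 input reads on each strand, called or not, the Spearman rho between the strands was 0.85. If inserts were read from both ends, the strands hold the same molecules, so this is not a check between independent reads.

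Bins below input lay more often in sequence with reduced mapping scores. Their median share of positions with a score under 42 was 18.7%, against 9.52% in bins not called and 8.33% in bins above input. The share of bins called below input was 5.54% where under 5% of positions had such a score and 15.4% where at least 50% had it. The share above input was 1.23% and 0.978% in those classes, and 0.524% where 25% to 50% of positions had such a score. The pPGK file, which alone of these 3 lists reads with scores under 30, gave a like order from its input. In the 4491 bins where at least 50% of its input reads scored under 30, 15.5% were below input with pR-Ea, against 5.02% of the 17702 bins where under 1% did. The share above input was 0.534% and 1.25% in these classes. Repeated sequence, such as the short tandem repeats named in the series title, can lower a mapping score. The bases of the bins were not analysed here, and the part of mapping in these calls was not tested. With positions of score 42 alone, 343 bins were above and 2987 below input of 34611.

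Across the 20 main chromosomes the share of bins above input ran from 0.465% on chromosome 19 to 1.70% on chromosome 12, and the share below from 6.89% on chromosome 11 to 11.0% on chromosome 18. The median log2 ratio of a chromosome stayed between -0.07 and 0.02. The 39576 bins start at 50 input reads, and those next to this limit looked alike on both sides of it. With 50 to 54 input reads 2.26% were above and 10.4% below input of 2482 bins, and with 45 to 49 reads 2.29% and 10.8% of 2924 bins left out. At 1000 or more input reads the shares were 0.383% and 11.5% of 2090 bins, which is where the SE was smallest (median 0.06).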

How the data were processed

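The series measured CapStarr-seq reporter RNA and plasmid input, of which the pR-Ea, SCP1 and pPGK files were used. The submitters' processing notes name build mm9, Bowtie2, SAMtools and bedtools 2.28.0, with no order of steps. The deposited files have no header. Columns 7 and 8 hold whole-number read counts per 5′ end position as deposited by the authors, and column 5 a mapping quality score deposited with each position (30 to 42 for pR-Ea and SCP1, 0 to 42 for pPGK). No label names the columns. Column 7 was read as the reporter and column 8 as the input, because column 8 was equal at all 5258758 positions shared by the pPGK and pPGK PMA_I files. Positions listed on both strands (2.38% for pR-Ea) carry equal counts on both lines. They were counted once, at the plus-strand midpoint. Only positions with a score of at least 30 were used. This kept all pR-Ea and SCP1 reads, but 64.1% of pPGK reporter and 56.0% of pPGK input reads. The kept pR-Ea bins hold 61.8% of its reporter and 61.9% of its input reads.

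Ratios, exact intervals and errors over positions (from the variance of reads among positions) were computed in Python 3.11.15 with numpy, pandas and SciPy, and tested on simulated data. Depth limits precision: a bin at 50 input reads has a wider interval than one at 1000. Bins were named by rule: in each tail the 12 called bins with at least 20 positions and the largest log2 ratio after subtracting about 2 SE, the 5 with most input reads, more than 2000 bp apart within each rule, and the longest runs. The members, rules and comparisons were chosen with earlier results of these data known. Gene names, sequence and repeats were not analysed here, since the tables at hand belong to another build. Alternatives varied the counted unit, scaling, minimum, bins, strand and mapping score.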

Additional observations from a re-analysis of the deposited data

Results flagged for a closer look

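Some bins were called on opposite sides of input with pR-Ea and with another promoter. Of the 249 shared bins above input with pR-Ea, 11 were below with SCP1 and 4 below with pPGK. Of the 2564 below input with pR-Ea, 22 were above with SCP1 and 16 above with pPGK. Over all 30800 shared bins 14.2% were below and 4.08% above input with SCP1, and 10.4% and 3.31% with pPGK. Opposite calls were thus rarer than these shares. The difference itself was not tested, since each library is single.

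A group of 4 bins was opposite to both other promoters. Chromosome 7, 53652001 to 53652500, was above input at 1.12 (SE 0.07, log2) with pR-Ea from 4667 reporter and 790 input reads. With SCP1 it was at -1.93 (SE 0.25) from 720 and 2216 reads, and with pPGK at -2.11 (SE 0.33) from 421 and 737. The bin before it was at 1.03 (SE 0.10) with pR-Ea, -0.03 (SE 0.21) with SCP1 and -0.16 (SE 0.38) with pPGK. Chromosome 4, 155153001 to 155153500, was low with pR-Ea at -2.39 (SE 0.50) and high with SCP1 at 2.52 (SE 0.34), and its pPGK value of 1.09 had an SE of 1.31. The next bin there was at -2.56 (SE 0.19) with pR-Ea, 0.72 (SE 0.27) with SCP1 and -1.98 (SE 0.28) with pPGK. Chromosome 16, 95006501 to 95007000, was at -2.02 (SE 0.32) with pR-Ea, 1.17 (SE 0.35) with SCP1 and 1.11 (SE 0.39) with pPGK. Chromosome 7, 67990001 to 67990500, was at -1.74 (SE 0.83) from 42 reporter and 52 input reads, against 1.22 (SE 0.29) and 1.54 (SE 0.19).

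Outside the kept bins, 291921 bins had pR-Ea reporter reads and 0 input reads. In 25930 of them the reporter count was above the 8.14 reads that 3 input reads would match at the average ratio. They held up to 307 reporter reads, and all bins with 0 input together held 2.02% of the reporter reads.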

How the results depend on the processing

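The 398 bins above and 3446 below input stayed within 1.5 times these counts with an interval over positions, both other scalings, bins of 1000 bp or shifted by 250 bp, each strand alone, score 42, other handling of both-strand positions, and without the position with most reporter reads. Counts above and below were 43 and 684 by distinct positions, 8367 and 47322 of 248498 bins at a minimum of 10 input reads, 71 and 1271 of 14975 at 200, 4197 and 7725 at 1.5-fold, and 10 and 1302 at 3-fold. With a pseudocount of 10, 204 were above, and in 250 bp bins 607 were above. Below input outnumbered above in each of these. Settings added after seeing the data gave 94 and 1970 of 21169 bins with at least 40 input positions, and 1546 below of 25673 bins where at most 10% of pPGK input reads scored under 30. The 34 bins above and 1770 below that were shared with SCP1 or pPGK became 1 and 372 by distinct positions, 406 and 4604 at a minimum of 10, 11 and 792 at 200, and 12 and 1140 with many positions. With medians set to 0, 73 were shared above. Fewer bins were tested in the stricter settings, and the cause was not tested otherwise. The pR-Ea tails differ in size between these settings, so the counts alone do not show whether the shared part rose or fell. No named bin changed sign. Named high bins lost their call in 17 of 225 values and low ones in 5 of 231, all by distinct positions except 1 on the plus strand. No paired analysis was possible because each group has 1 library.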
